A study of Ambystoma mexicanum with 3 samples.

Results

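Heat shock proteins and their partner chaperones were taken as every gene of the axolotl libraries whose symbol began with Hspa, Hspb, Hspd, Hspe, Hsph, Hsp90, Dnaja, Dnajb or Dnajc, or was Cct followed by a number. Of 70 such symbols, 57 had at least 20 unique molecular identifiers (UMIs) in the 3 libraries together, out of 11772 symbols of the series that reached this minimum. Of the 13 left out, 5 were at 0 UMIs and 8 had 1 to 19, among them *Hspa1a* with 4 UMIs and *Hspa2* with 5. The rule used names and summed counts, not any difference between conditions, but it was set with earlier results of these data known. A few names in the set belong to proteins with other known roles, such as *Hspb11*, a component of intraflagellar transport.

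The nuclei came from tail tips of axolotl (*Ambystoma mexicanum*) embryos at stage 42, in 3 conditions with 1 library each. Rom 6 HPA embryos were kept in 10 μM romidepsin, an inhibitor of class I histone deacetylases, for 6 h post amputation (HPA). Cont 6 HPA embryos were kept untreated in rearing water for the same time, and 0 HPA nuclei were taken at amputation. Tissue of 100 embryos was pooled for each 6 HPA library, and the number pooled for 0 HPA was not given in the sources used here. The sample labels give the later time in days where the study gives hours, and the hours are used. In the text of the study the numbers of nuclei of the romidepsin and the control library stand the other way round from the labelled files, so the direction of each Rom 6 HPA against Cont 6 HPA comparison rests on the sample labels.

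Heat shock proteins bind unfolded or newly made proteins and help them to fold, to assemble or to reach the organelle in which they work. HSP70 proteins (*Hspa* genes) hold short exposed stretches of a client in a cycle driven by ATP, J-domain proteins (*Dnaj* genes) deliver the client and trigger the cycle, HSP90 proteins act later on signalling proteins, small HSPs (*Hspb* genes) keep clients from aggregating without ATP, and the CCT ring folds actin and tubulin. Many of these genes are expressed at all times, and a subset is switched on by heat shock factor in the cytosol or by the unfolded protein response of the endoplasmic reticulum (ER).

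The sequences below are the coding parts of the target regions that the study designed from axolotl transcripts for a Nanostring panel. The study named the targets *Hspa8* and *Hsp90aa1*. Genes under these names, the constitutive HSP70 and a cytosolic HSP90, lead their groups by UMIs. Which genes the targets belong to rests on the names that the study gave. Capitals mark the codons of the terminal EEVD motif, to which co-chaperones dock, and the stop codon after it.
*Hspa8* target: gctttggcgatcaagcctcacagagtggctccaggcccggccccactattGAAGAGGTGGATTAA
*Hsp90aa1* target: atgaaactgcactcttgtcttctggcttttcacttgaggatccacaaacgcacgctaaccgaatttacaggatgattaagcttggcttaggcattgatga
In the count files *Hspa8* had 3 transcript features, of which 1 held 99.9% of its UMIs. The cytosolic HSP90 symbol of the count files is *Hsp90aa1.1*. Whether the features of *Hspa8* or of *Hsp90aa1.1* hold these targets was not tested.

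The Rom 6 HPA library held 44735 nuclei and 58827729 UMIs, that of Cont 6 HPA 56936 nuclei and 105765943 UMIs, and that of 0 HPA 31522 nuclei and 42537606 UMIs. Levels are UMIs per 1000000 UMIs of the library (CPM), not scaled by gene length. Exact Poisson 95% intervals stand beside levels and exact conditional ones beside ratios, and both hold counting error alone. Each condition was a single library, so the replicate error is unknown and nothing was tested. In a summed library fewer cells of a type and less RNA per cell cannot be told apart. Nuclei fell into clusters that were deep and clusters that were shallow relative to the median of their library. Deep clusters held 28.7% of the UMIs in Rom 6 HPA, 20.8% in Cont 6 HPA and 39.6% at 0 HPA, so values within deep and within shallow nuclei stand beside many of the comparisons below. Shared barcodes were few, with 736 common to Rom 6 HPA and Cont 6 HPA (1.65% and 1.29% of their nuclei).

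Together the 57 genes took 8579 CPM in Rom 6 HPA, 9608 CPM in Cont 6 HPA and 9048 CPM at 0 HPA. The sum was thus lower in Rom 6 HPA than in Cont 6 HPA, with a log2 ratio of Rom 6 HPA over Cont 6 HPA, the Rom/Cont log2 ratio, of −0.16 (interval −0.17 to −0.16), and it was lower within deep nuclei (6421 against 7030.0 CPM) and within shallow nuclei (9448 against 10285 CPM) too. *Hspa8*, *Hspa5* and *Hsp90b1* made up 84.4% of the difference between the sums. Apart from them, the other members came to 3717 CPM in Rom 6 HPA and 3877 CPM in Cont 6 HPA.

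Few members differed by much between Rom 6 HPA and Cont 6 HPA. Of the 57, 3 were over 1.5-fold higher in Rom 6 HPA (5.26%), against 9.45% of all symbols with at least 20 UMIs, and 0 were over 1.5-fold lower, against 3.70%. Among the 52 members with at least 200 UMIs, 1 was higher and 0 were lower, against 5.36% and 1.38% of all symbols with that many. The median log2 ratio was −0.07 over the members and 0.03 over all symbols, with 19 of the 57 members and 54.1% of all symbols above 0. Within deep nuclei the medians were −0.03 and −0.05, so the members were not below all symbols there, and within shallow nuclei they were −0.04 and 0.03. By counting error alone, the interval lay above 0 for 8 members (14.0%), against 24.9% of all symbols, and below 0 for 25 (43.9%), against 19.6%, and it spanned 0 for 24 members. Intervals narrow with the number of UMIs, and 21 of the 57 members had at least 10000 UMIs. The shares of all symbols were not matched for level, so these counts are not read as a lean of the set. Of the 3 members past 1.5-fold, *Hspa12b* (52 UMIs) and *Hspbap1* (32 UMIs) rested on few counts, and *Dnajb14* (394 UMIs), an ER membrane J-domain protein, had 2.40 CPM in Rom 6 HPA, 1.59 CPM in Cont 6 HPA and 2.00 CPM at 0 HPA. The Rom/Cont log2 ratio of *Dnajb14* was 0.59 (0.26 to 0.93), and it was under the mark of 0.58 with size factors (0.55), after thinning to 950 UMIs per nucleus (0.49) and within shallow nuclei (0.38). Within deep nuclei it was past the mark, at 0.70 (0.15 to 1.25).

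**Figure D1:**
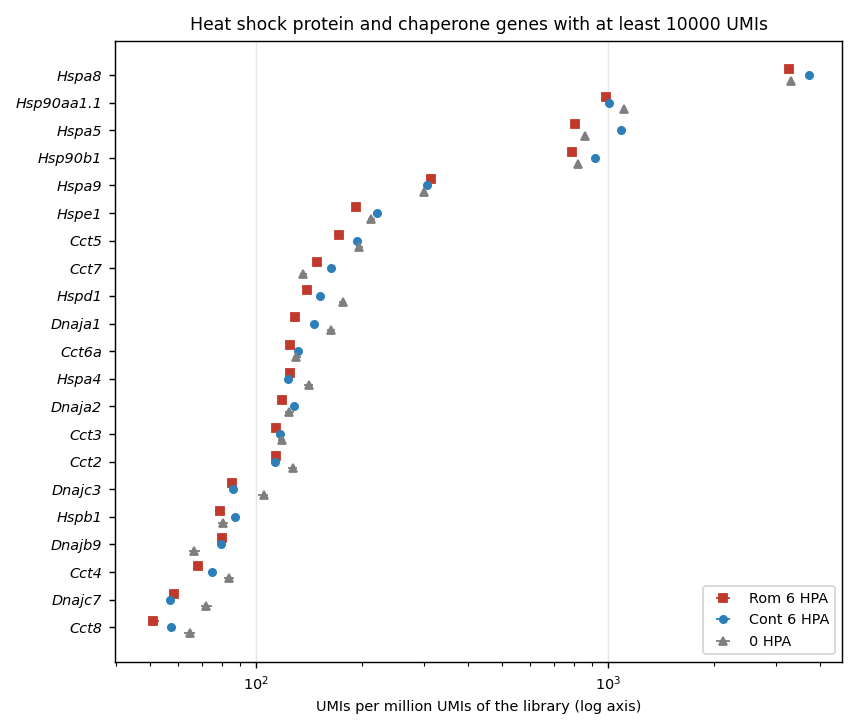
CPM of the 21 members with at least 10000 UMIs (log axis, not scaled by gene length) in Rom 6 HPA (squares), Cont 6 HPA (circles) and 0 HPA (triangles), with exact Poisson 95% intervals, mostly narrower than the symbols. *Hspa8* and *Hspa5* were highest in Cont 6 HPA, with 3721 and 1089.7 CPM, while *Hspd1* and *Hsp90aa1.1* were highest at 0 HPA on this scale of total UMIs but not under size factors from the median of ratios.

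Between Cont 6 HPA and 0 HPA, 1 member was over 1.5-fold higher in Cont 6 HPA, against 3.83% of all symbols, and 3 were over 1.5-fold lower, against 21.9%. The higher one was *Dnajb2* with 57 UMIs, and the lower ones were *Hspb7*, *Hspa12b* and *Hspbap1*. With at least 200 UMIs, 0 members were higher and 1 (*Hspb7*) was lower, against 2.48% and 15.8% of all symbols. The median log2 ratio was −0.01 over the members and −0.23 over all symbols. It was −0.12 over both within deep nuclei, and −0.07 over the members and −0.16 over all symbols within shallow nuclei. These values depend on the scaling. Under size factors from the median of ratios, each log2 ratio of Cont 6 HPA over 0 HPA (Cont/0 HPA) moved by 0.23 and each of Rom 6 HPA to 0 HPA by 0.19, while those of Rom 6 HPA to Cont 6 HPA moved by −0.04. Of the 57 members, 28 were above 0 in Cont 6 HPA against 0 HPA under the total UMIs, against 24.1% of all symbols. Under the size factors 46 were above 0, where the median was 0.22 over the members and 0.00 over all symbols. Within deep nuclei 15 of 56 were above 0, where both medians were −0.12. The shares of all symbols above 0 in those settings were not counted. Under the size factors the call of *Hspb7* ended (−0.57), and *Dnajb13* (0.66) and *Hspb6* (0.64) were the members of at least 200 UMIs past 1.5-fold, 2 of 52 against 4.74% of all symbols. Between Rom 6 HPA and 0 HPA, 0 members were over 1.5-fold higher (5.82% of all symbols) and 0 over 1.5-fold lower (13.6%), as were 0 and 0 of those with at least 200 UMIs (3.78% and 8.23%), and the member sums were 8579 and 9048 CPM. The comparisons share libraries, since each library enters 2 of the 3.

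**Figure D2:**
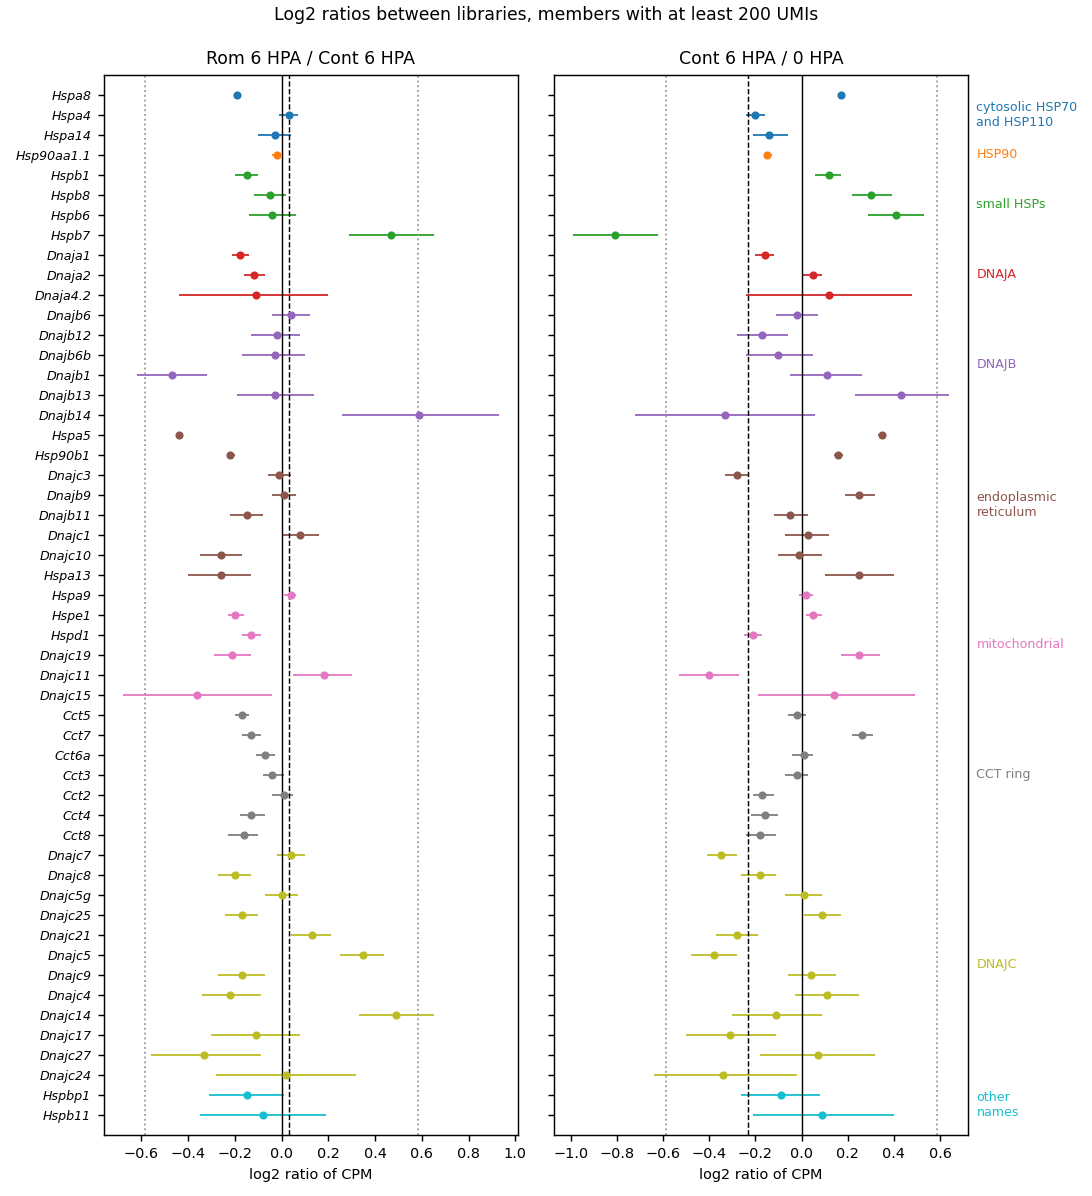
Log2 ratios of CPM for the 52 members with at least 200 UMIs, grouped by role, for Rom 6 HPA over Cont 6 HPA (left) and Cont 6 HPA over 0 HPA (right). Bars are exact conditional 95% intervals, the dashed line is the median of all symbols (0.03 and −0.23) and dotted lines mark 1.5-fold. Most ER and CCT ring members sit at or left of 0 on the left panel, and *Hspb7* at −0.81 lies farthest left on the right panel.

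Among cytosolic HSP70 genes, *Hspa8*, the constitutive HSP70 that also strips clathrin from vesicles, had 3267 CPM in Rom 6 HPA (interval 3253 to 3282), 3721 CPM in Cont 6 HPA (3709.5 to 3733) and 3312 CPM at 0 HPA (3295 to 3329). It alone took 38.1% of the members' UMIs in Rom 6 HPA, 38.7% in Cont 6 HPA and 36.6% at 0 HPA. The Rom/Cont log2 ratio was −0.19 (−0.20 to −0.18), and it was −0.13 within deep and −0.14 within shallow nuclei. For Cont 6 HPA over 0 HPA the ratio was 0.17 in the whole libraries and 0.12 in shallow nuclei, but −0.13 in deep nuclei, so its direction was not shared. A second *Hspa8* feature, with 1022 UMIs, had a Rom/Cont log2 ratio of 0.43 (0.23 to 0.63), against −0.19 for the leading one. *Hspa4*, an HSP110-type exchange factor for HSP70, differed little, with 125 CPM (Rom 6 HPA), 123 CPM (Cont 6 HPA) and 141 CPM (0 HPA). *Hspa14*, a ribosome-associated HSP70, had 42.7 CPM (Rom 6 HPA), 43.5 CPM (Cont 6 HPA) and 47.9 CPM (0 HPA). *Hsph1*, an exchange factor that is heat inducible in mammals, was low with 18 UMIs in Rom 6 HPA, 26 in Cont 6 HPA and 9 at 0 HPA. The heat-inducible HSP70 symbol of the files, *Hspa1a*, had 4 UMIs in all.

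Cytosolic HSP90 was nearly level at 6 HPA. *Hsp90aa1.1*, which holds kinases and steroid receptors in an activatable form, had 989 CPM in Rom 6 HPA, 1006 CPM in Cont 6 HPA and 1112 CPM at 0 HPA. Its Rom/Cont log2 ratio was −0.02 (−0.04 to −0.01), and 0.00 within deep and within shallow nuclei. The Cont/0 HPA log2 ratio was −0.15 under the total UMIs and 0.09 under the size factors, so no direction is given for it. A second *Hsp90aa1.1* feature, with 1380 UMIs, had 0.73 (0.50 to 0.97) under the total UMIs, against −0.15 for the leading one.

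The small HSPs went different ways. *Hspb1*, which guards the actin cytoskeleton and is a classical stress protein, had 78.7 CPM in Rom 6 HPA, 87.2 CPM in Cont 6 HPA and 80.4 CPM at 0 HPA, and its Cont/0 HPA log2 ratio was 0.12 in the whole libraries, −0.08 in deep and 0.05 in shallow nuclei. *Hspb8*, a partner of Bag3 in the clearance of misfolded proteins, had 45.1 CPM (Rom 6 HPA), 46.6 CPM (Cont 6 HPA) and 37.8 CPM (0 HPA). *Hspb6*, a small HSP of muscle, had 22.1 CPM (Rom 6 HPA), 22.7 CPM (Cont 6 HPA) and 17.1 CPM (0 HPA). The last pair was higher in Cont 6 HPA than at 0 HPA, with log2 ratios of 0.30 (0.22 to 0.39) and 0.41 (0.29 to 0.53), and 0.54 and 0.64 under the size factors. *Hspb6* had 0.28 in deep and 0.33 in shallow nuclei, while *Hspb8* had 0.04 (−0.13 to 0.21) in deep and 0.24 (0.14 to 0.34) in shallow nuclei.

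*Hspb7*, a small HSP of heart and skeletal muscle, was the exception in the other direction. It had 7.82 CPM in Rom 6 HPA, 5.64 CPM in Cont 6 HPA and 9.85 CPM at 0 HPA. Within deep nuclei it had 20.7 CPM (Rom 6 HPA), 20.6 CPM (Cont 6 HPA) and 22.3 CPM (0 HPA), and within shallow nuclei 2.62 CPM (Rom 6 HPA), 1.70 CPM (Cont 6 HPA) and 1.67 CPM (0 HPA). The Cont/0 HPA log2 ratio was −0.81 (−0.99 to −0.62) in the whole libraries, −0.11 (−0.31 to 0.09) in deep nuclei and 0.02 (−0.48 to 0.55) in shallow nuclei, and −0.57, under the 1.5-fold mark, with size factors. Deep nuclei held 20.8% of the UMIs in Cont 6 HPA and 39.6% at 0 HPA, and the part of this share in the difference between the whole libraries was not tested. For Rom 6 HPA against Cont 6 HPA the ratio was 0.47 in the whole libraries, 0.01 in deep and 0.63 (0.26 to 1.00) in shallow nuclei, the last on 110 UMIs in Rom 6 HPA and 142 in Cont 6 HPA.

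J-domain proteins outside the ER and mitochondrial role groups showed a few single differences. *Dnajb1*, the partner of HSP70 in refolding and a target of heat shock factor, had 8.60 CPM in Rom 6 HPA, 11.9 CPM in Cont 6 HPA and 11.1 CPM at 0 HPA. Its Rom/Cont log2 ratio, −0.47 (−0.62 to −0.32), was the lowest of the members, and it was −0.50 in deep and −0.44 in shallow nuclei. *Dnaja1*, a general J-domain partner of Hspa8, had 129 CPM (Rom 6 HPA), 146 CPM (Cont 6 HPA) and 163 CPM (0 HPA), with a Rom/Cont log2 ratio of −0.33 in deep and −0.10 in shallow nuclei. *Dnaja2*, another partner of this kind, had 118 CPM (Rom 6 HPA), 128 CPM (Cont 6 HPA) and 124 CPM (0 HPA), and its Cont/0 HPA log2 ratio of 0.05 was −0.13 in deep and −0.05 in shallow nuclei. Higher in Rom 6 HPA were *Dnajc14*, an ER-linked J-domain protein, with 9.60 CPM against 6.84 CPM in Cont 6 HPA (7.36 CPM at 0 HPA), and *Dnajc5*, the cysteine string protein of synaptic vesicles, with 28.2 CPM against 22.2 CPM (28.9 CPM at 0 HPA). Their log2 ratios were 0.49 (0.33 to 0.65) and 0.35 (0.25 to 0.44), under the 1.5-fold mark.

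The remaining J-domain proteins outside the ER and mitochondrial role groups lay within 1.5-fold between the 6 HPA libraries. *Dnajc7*, an adaptor that binds both HSP70 and HSP90, had 58.3 CPM in Rom 6 HPA, 56.7 CPM in Cont 6 HPA and 72.1 CPM at 0 HPA. *Dnajc8*, a protein of the spliceosome, had 41.0 CPM (Rom 6 HPA), 47.0 CPM (Cont 6 HPA) and 53.4 CPM (0 HPA). *Dnajc21*, a factor of ribosome maturation, had 32.3 CPM (Rom 6 HPA), 29.6 CPM (Cont 6 HPA) and 36.0 CPM (0 HPA), and its features did not share a Rom/Cont log2 ratio (−0.03 for the one with most UMIs and 0.33 for the other). *Dnajc9*, a chaperone of histones H3 and H4, had 21.0 CPM (Rom 6 HPA), 23.6 CPM (Cont 6 HPA) and 22.9 CPM (0 HPA). *Dnajb6*, which holds back polyglutamine aggregates, had 34.1 CPM (Rom 6 HPA), 33.1 CPM (Cont 6 HPA) and 33.5 CPM (0 HPA), and its near namesake *Dnajb6b* had 11.8 CPM (Rom 6 HPA), 12.1 CPM (Cont 6 HPA) and 13.0 CPM (0 HPA). *Dnajc5g*, a paralog of *Dnajc5*, had 43.3 CPM (Rom 6 HPA), 43.2 CPM (Cont 6 HPA) and 43.0 CPM (0 HPA). Reads of such paired symbols may have been divided between them at mapping, so single values of *Dnajb6*, *Dnajb6b*, *Dnajc5* and *Dnajc5g* are uncertain. *Dnajb12*, a quality control protein of the ER membrane, had 19.6 CPM (Rom 6 HPA), 19.9 CPM (Cont 6 HPA) and 22.5 CPM (0 HPA). The interval lay below 0 in Rom 6 HPA against Cont 6 HPA for *Dnajc4* (12.7 against 14.7 CPM), *Dnajc25* (39.9 against 44.9 CPM) and *Dnajc27*, a Rab-like GTPase with a J domain (3.69 against 4.62 CPM). *Hspbp1*, a factor that releases nucleotide from HSP70, had 8.01 CPM (Rom 6 HPA), 8.89 CPM (Cont 6 HPA) and 9.45 CPM (0 HPA).

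The 8 members listed under the ER made up the role group that differed most between the 6 HPA libraries. Some ER membrane proteins, such as *Dnajb12* and *Dnajb14*, were listed under other roles. As a sum the 8 had 1868 CPM in Rom 6 HPA, 2293 CPM in Cont 6 HPA and 1968 CPM at 0 HPA. The Rom/Cont log2 ratio was −0.30 (−0.31 to −0.29). By counting error alone, 5 of the 8 had an interval below 0, against 19.6% of all symbols, and 0 had one above, against 24.9%. Such intervals narrow with the number of UMIs, so small ratios of abundant genes are counted too. The sum of Cont 6 HPA was above that of 0 HPA by 0.22 (0.21 to 0.23) on the log2 scale.

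Most of this was *Hspa5* (BiP), the HSP70 of the ER lumen and a standard reporter of the unfolded protein response. It had 804 CPM in Rom 6 HPA (interval 797 to 812), 1089.7 CPM in Cont 6 HPA (1083 to 1096) and 857 CPM at 0 HPA (849 to 866). The Rom/Cont log2 ratio was −0.44 (−0.45 to −0.42), and that of Cont 6 HPA to 0 HPA was 0.35 (0.33 to 0.36), or 0.58 under the size factors. *Hspa5* was counted on 1 transcript feature. Against 0 HPA, Rom 6 HPA had a log2 ratio of −0.09 under the total UMIs and 0.10 under the size factors, and under the total UMIs it had −0.25 (−0.29 to −0.21) in deep and −0.10 (−0.13 to −0.08) in shallow nuclei. The Cont/0 HPA log2 ratio was 0.21 in deep and 0.28 in shallow nuclei.

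*Hsp90b1* (GRP94), the ER HSP90 that folds integrins and Toll-like receptors, had 791 CPM in Rom 6 HPA, 920.1 CPM in Cont 6 HPA and 822 CPM at 0 HPA. The Rom/Cont log2 ratio was −0.22 (−0.23 to −0.20). The Cont/0 HPA log2 ratio of *Hsp90b1* was 0.16 in the whole libraries, 0.01 in deep and 0.06 in shallow nuclei. *Dnajc10*, an ER disulfide reductase with a J domain, had 23.4 CPM (Rom 6 HPA), 28.1 CPM (Cont 6 HPA) and 28.2 CPM (0 HPA). *Hspa13*, a microsomal HSP70, had 11.3 CPM (Rom 6 HPA), 13.6 CPM (Cont 6 HPA) and 11.4 CPM (0 HPA). The ER group did not differ as one. *Dnajb9* (ERdj4), a repressor of the Ire1 stress sensor, had 80.0 CPM in Rom 6 HPA, 79.5 CPM in Cont 6 HPA and 66.7 CPM at 0 HPA. *Dnajc3* (p58IPK), which assists BiP and restrains the kinase Perk, had 85.2 CPM (Rom 6 HPA), 86.1 CPM (Cont 6 HPA) and 105 CPM (0 HPA). *Dnajb11* (ERdj3), a J-domain partner of BiP, had 41.7 CPM (Rom 6 HPA), 46.3 CPM (Cont 6 HPA) and 47.8 CPM (0 HPA), and *Dnajc1*, another, had 31.5 CPM (Rom 6 HPA), 29.8 CPM (Cont 6 HPA) and 29.3 CPM (0 HPA). Among the 8, *Hspa5* had the widest difference between the 6 HPA libraries, and the log2 ratios of *Dnajc3*, *Dnajb9* and *Dnajc1* (−0.01, 0.01 and 0.08) had intervals that reached 0. Within deep nuclei, however, *Dnajc3* had −0.20 (−0.30 to −0.11) where shallow nuclei had 0.03, and *Dnajb11* had 0.03 (−0.14 to 0.21) where shallow nuclei had −0.12.

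The mitochondrial and CCT groups differed less. *Hspa9* (mortalin), the HSP70 of protein import into mitochondria, had 313 CPM in Rom 6 HPA, 305 CPM in Cont 6 HPA and 300.3 CPM at 0 HPA. *Hspd1* (HSP60), the mitochondrial folding chamber, had 139 CPM (Rom 6 HPA), 152 CPM (Cont 6 HPA) and 176 CPM (0 HPA). *Hspe1* (HSP10), the lid of that chamber, had 192 CPM (Rom 6 HPA), 220.0 CPM (Cont 6 HPA) and 212 CPM (0 HPA). Under the total UMIs, *Hspe1* was lower in Cont 6 HPA than at 0 HPA within deep (−0.14) and within shallow nuclei (−0.09), although the ratio of the whole libraries was 0.05. *Dnajc19*, a regulator of the protein import motor of mitochondria, had 33.7 CPM in Rom 6 HPA, 38.9 CPM in Cont 6 HPA and 32.6 CPM at 0 HPA. *Dnajc15*, a relative of *Dnajc19*, had 2.01 CPM (Rom 6 HPA), 2.57 CPM (Cont 6 HPA) and 2.33 CPM (0 HPA), with a Rom/Cont log2 ratio of −0.95 in deep and −0.17 in shallow nuclei. The 7 CCT ring subunits of the set summed to 793 CPM in Rom 6 HPA, 849 CPM in Cont 6 HPA and 856 CPM at 0 HPA. In Rom 6 HPA against Cont 6 HPA their log2 ratios ran from −0.17 (*Cct5*) to 0.01 (*Cct2*). Of the 7 intervals 5 lay below 0, against 19.6% of all symbols, and the ratios were small. *Cct2* had −0.19 (−0.27 to −0.10) in deep and 0.07 (0.02 to 0.12) in shallow nuclei. *Cct7* was higher in Cont 6 HPA (163 CPM) than at 0 HPA (136 CPM), whereas *Cct8* had 57.1 against 64.7 CPM, a log2 ratio of −0.18 under the total UMIs and 0.05 under the size factors, and its features went apart (−0.47 and 0.19 under the total UMIs). *Tcp1*, the eighth subunit of the ring under another name, had 147 CPM (Rom 6 HPA), 161 CPM (Cont 6 HPA) and 153 CPM (0 HPA).

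A list of 51 other genes of protein folding and of the stress responses that control the members was set beside them. Of these, 42 had at least 20 UMIs. In Rom 6 HPA against Cont 6 HPA, 2 of the 42 were over 1.5-fold higher and 0 lower (9.45% and 3.70% of all symbols), with a median log2 ratio of −0.06. *Ddit3* (CHOP), a transcription factor induced by ER and amino acid stress, had 9.45 CPM in Rom 6 HPA, 5.22 CPM in Cont 6 HPA and 3.55 CPM at 0 HPA, with a log2 ratio of 0.86 (0.68 to 1.03) between the 6 HPA libraries. It was 1.1 in deep and 0.78 in shallow nuclei. The other was *Creld2*, an ER stress gene with 154 UMIs, whose ratio of 0.62 fell just under the mark with size factors (0.58). The ratio of *Creld2* was 0.17 (−0.80 to 1.12) in deep and 0.77 (0.08 to 1.46) in shallow nuclei. *Herpud1*, a part of ER-associated degradation, lay just under the mark with 104 CPM in Rom 6 HPA, 69.2 CPM in Cont 6 HPA and 69.8 CPM at 0 HPA (0.58, 0.53 to 0.63, with 0.66 in deep and 0.60 in shallow nuclei), and it is named after its values were seen. *Xbp1*, a transcription factor of the unfolded protein response, had 22.3 CPM (Rom 6 HPA), 23.4 CPM (Cont 6 HPA) and 21.5 CPM (0 HPA), and *Atf4*, the translational stress regulator upstream of *Ddit3*, had 251 CPM (Rom 6 HPA), 303 CPM (Cont 6 HPA) and 304 CPM (0 HPA). *Ddit3* and *Herpud1* were thus higher in Rom 6 HPA, where *Hspa5* and *Hsp90b1* were lower. Other ER genes of the list, named after their values were seen, went both ways. The Rom/Cont log2 ratio was 0.14 (0.11 to 0.17) for *Pdia3*, 0.13 (0.08 to 0.19) for *Calr* and 0.14 (0.05 to 0.23) for *Canx*. It was −0.14 (−0.18 to −0.10) for *Sdf2l1* and −0.25 (−0.47 to −0.04) for *Sil1*. *Pdia4* and *Pdia6* (each 0.02) had intervals that spanned 0.

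In Cont 6 HPA against 0 HPA, 1 of the 42 was over 1.5-fold higher and 2 lower (3.83% and 21.9% of all symbols). *Cryab*, a small HSP of lens and muscle whose symbol is outside the name rule, had 3.69 CPM in Rom 6 HPA, 4.72 CPM in Cont 6 HPA and 2.19 CPM at 0 HPA. *Calr*, a calcium-binding ER lectin chaperone, had 73.2 CPM (Rom 6 HPA), 66.8 CPM (Cont 6 HPA) and 104 CPM (0 HPA). *Bag6*, a holdase for membrane proteins on their way to the ER, had 4.05 CPM (Rom 6 HPA), 3.16 CPM (Cont 6 HPA) and 5.24 CPM (0 HPA). Under the size factors 2 of the 42 were higher, *Cryab* (1.34) and *Ddit3* (0.79), and 0 were lower. Of all symbols with at least 200 UMIs, 4.74% were higher and 5.27% lower under this scaling. The ratios of *Calr* (−0.64 under the total UMIs) and *Bag6* (−0.73) became −0.40 and −0.50. In Rom 6 HPA against 0 HPA, 2 of the 42 were over 1.5-fold higher and 1 lower (5.82% and 13.6% of all symbols). The higher ones were *Ddit3* and *Cryab*, and *Ptges3* (p23), an HSP90 co-chaperone, was lower with 2.46 CPM against 3.81 CPM (−0.63). With size factors *Ptges3* was under the mark (−0.44), and 4 of the 42 were higher, with *Chordc1* (0.64) and *Herpud1* (0.76) added. Of all symbols with at least 200 UMIs, 6.07% were higher and 3.47% lower under this scaling. Within deep nuclei *Ptges3* had −0.22 and *Cryab* 0.39, and within shallow nuclei they had −0.82 (−1.29 to −0.35) and 0.90 (0.45 to 1.36). *Hsf1*, the heat shock factor itself, had 2.38 CPM (Rom 6 HPA), 2.46 CPM (Cont 6 HPA) and 3.36 CPM (0 HPA).

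Members were next compared across cell classes. Clustering without the member symbols divided the 18758 deep nuclei into 23 clusters, of which 13 could be named by marker genes, with 10050 nuclei in 10 classes. The classes were basal epidermis-like, ciliated-like, endothelial-like, erythrocyte-like, melanocyte-like, muscle-like, myeloid-like, neural-like, notochord-like and surface epithelial-like nuclei. No cluster was named fibroblast-like. However, unnamed clusters of 2249, 1548 and 1448 nuclei each had 3 of 8 detected fibroblast markers over 2-fold. None of these markers was among their 10 leading genes, so the naming rule left these nuclei outside the named classes. The 114435 shallow nuclei were kept as 1 group. A member was called for a class when it was over 2-fold higher there than in the other named classes in each library with at least 50 nuclei of the class. Of 52 members with at least 20 UMIs in these nuclei, 6 were called (11.5%), against 28.6% of all symbols.

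*Hspb1* and *Hspb8* were called in notochord-like nuclei, which were marked by *T* (brachyury). *Hspb1* had 398 CPM in Rom 6 HPA, 445 CPM in Cont 6 HPA and 627 CPM at 0 HPA in these nuclei, or 475 CPM over the 3 libraries against 54.4 CPM in the other classes, which is 8.74-fold (7.95 to 9.60). Muscle-like nuclei followed with 78.3 CPM (Rom 6 HPA), 85.5 CPM (Cont 6 HPA) and 115 CPM (0 HPA), and surface epithelial-like nuclei had 34.1 CPM (Rom 6 HPA), 41.6 CPM (Cont 6 HPA) and 34.1 CPM (0 HPA). *Hspb8* had 129 CPM (Rom 6 HPA), 135 CPM (Cont 6 HPA) and 229 CPM (0 HPA) in notochord-like nuclei, 5.47-fold (4.67 to 6.38) over the other classes, and muscle-like nuclei had 44.6 CPM (Rom 6 HPA), 48.4 CPM (Cont 6 HPA) and 51.4 CPM (0 HPA). The pair thus shared the notochord-like class and stood second in muscle-like nuclei, with the remaining classes of 50 or more nuclei per library between 11.2 and 66.1 CPM for *Hspb1*. A low level of this kind in all classes is also what free RNA in the droplets gives, and its part in these values was not tested.

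*Hspb6* was called in muscle-like nuclei, where it had 26.6 CPM in Rom 6 HPA, 29.4 CPM in Cont 6 HPA and 25.5 CPM at 0 HPA, 2.16-fold (1.81 to 2.57) over the other classes. *Hspb7* had 22 CPM (Rom 6 HPA), 19 CPM (Cont 6 HPA) and 29.2 CPM (0 HPA) in muscle-like nuclei and 38.0 CPM (Rom 6 HPA), 31.7 CPM (Cont 6 HPA) and 32.4 CPM (0 HPA) in neural-like nuclei. Its fold over the other classes was 1.36 in muscle-like and 1.94 (1.49 to 2.49) in neural-like nuclei, under the mark for both. *Dnajb6b*, a J-domain protein of the Z-disc in mammals under the name DNAJB6, was 2.04-fold (1.64 to 2.54) higher in muscle-like nuclei over the 3 libraries together. *Dnajb6* was 1.58-fold (1.33 to 1.87) higher in basal epidermis-like nuclei and *Dnajc9* 1.96-fold (1.29 to 2.87) higher in endothelial-like nuclei, both under the mark.

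*Dnajc3* and *Hspa5* were called in surface epithelial-like nuclei, which were marked by the mucin *Muc5b* and *Otof*. *Dnajc3* had 214 CPM in Rom 6 HPA, 255 CPM in Cont 6 HPA and 276 CPM at 0 HPA there, 3.96-fold (3.71 to 4.23) over the other classes. *Hspa5* had 965 CPM (Rom 6 HPA), 1389 CPM (Cont 6 HPA) and 1196 CPM (0 HPA) there, 2.15-fold (2.10 to 2.21) over the other classes. The ER members as a sum had 2116 CPM (Rom 6 HPA), 2707 CPM (Cont 6 HPA) and 2618 CPM (0 HPA) in surface epithelial-like nuclei and 971 CPM (Rom 6 HPA), 1247 CPM (Cont 6 HPA) and 1133 CPM (0 HPA) in muscle-like nuclei. Shallow nuclei, which are no part of the fold, had 2070.0 CPM (Rom 6 HPA), 2448 CPM (Cont 6 HPA) and 2205 CPM (0 HPA), so a high ER sum was not particular to this class. The share of deep nuclei in the surface epithelial-like class was 13.9% in Rom 6 HPA, 15.6% in Cont 6 HPA and 19.4% at 0 HPA.

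*Dnajc17*, a nuclear J-domain protein, was called in myeloid-like nuclei on 3 UMIs in each library. *Dnajb13*, a radial spoke protein of motile cilia and sperm, had 85 CPM in Rom 6 HPA, 70.8 CPM in Cont 6 HPA and 64.1 CPM at 0 HPA in ciliated-like nuclei. This was 20.4-fold (13.4 to 30.3) over the other classes, on 33 UMIs in 94 nuclei, and the class was too small for a call. The next level was 14.7 CPM (11.1 to 19.2) in an unnamed cluster led by *Igdcc3*, *Pkd1* and *Rfx4*. This cluster of 1564 nuclei had 8 of 11 detected ciliated markers over 2-fold. Unnamed clusters of 235 and 92 nuclei had 10 of 11 and 7 of 9. None of them is in the reference of the 20.4-fold value, which holds the other named classes alone. *Dnajc5* was 1.87-fold (1.55 to 2.25) higher in neural-like nuclei, with 74.3 CPM (Rom 6 HPA), 45.1 CPM (Cont 6 HPA) and 71.9 CPM (0 HPA). The 7 CCT ring subunits, *Hspa8*, *Hsp90aa1.1* and *Hspa9* were not called for any class. This was the common outcome, as 11.5% of the members and 28.6% of all symbols were called.

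**Figure D3:**
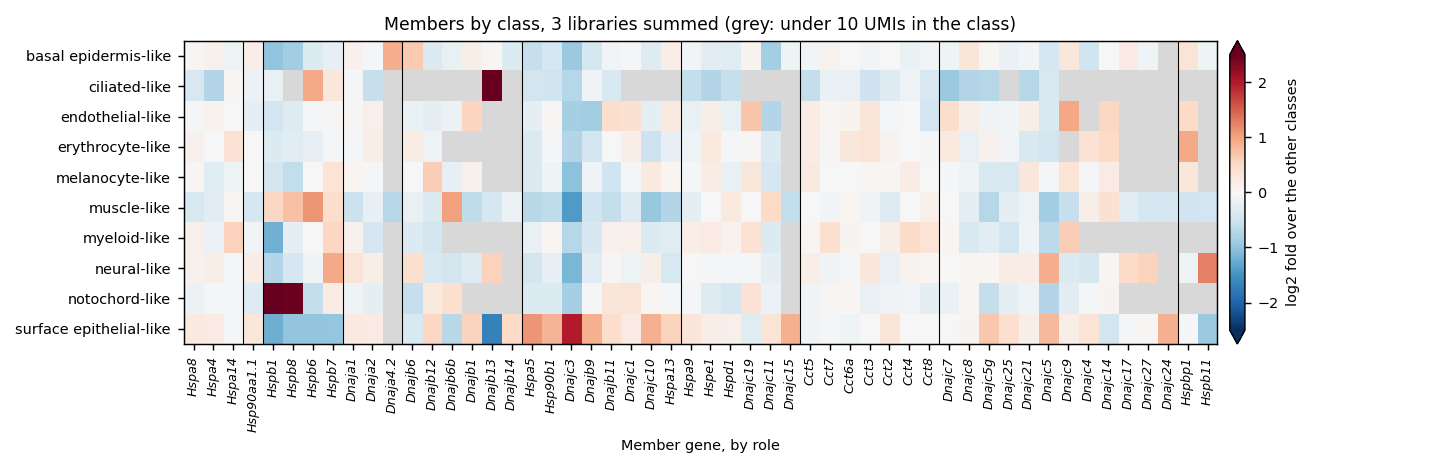
Log2 fold of each member with at least 200 UMIs over the other named classes, for the 3 libraries summed, with classes as rows and members ordered by role. Red is higher in the class, blue is lower and grey marks under 10 UMIs. *Hspb1* and *Hspb8* stand out in notochord-like nuclei (8.74-fold and 5.47-fold), *Dnajb13* in ciliated-like nuclei (20.4-fold) and *Dnajc3* in surface epithelial-like nuclei (3.96-fold), whereas the CCT ring is pale throughout.

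The lower *Hspa5* of Rom 6 HPA was seen in most classes. In the 9 classes with at least 50 nuclei in each library, the Rom/Cont log2 ratio was below 0 in 8, with 8 intervals below 0, and ran from −0.53 in surface epithelial-like nuclei to 0.03 in notochord-like nuclei. Muscle-like nuclei had 435 CPM of *Hspa5* in Rom 6 HPA against 609 CPM in Cont 6 HPA, and basal epidermis-like nuclei 466 CPM against 639 CPM. Notochord-like nuclei, with 646 CPM against 631 CPM (interval of the ratio −0.20 to 0.27), were the exception. Shallow nuclei had 887 CPM against 1160.1 CPM, a ratio of −0.39 (−0.40 to −0.37).

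Between Cont 6 HPA and 0 HPA, *Hspa5* was higher in Cont 6 HPA in 9 of 9 classes, with 8 intervals above 0 and ratios from 0.20 in muscle-like to 0.78 in erythrocyte-like nuclei, the last on 49 UMIs at 0 HPA. Shallow nuclei had a ratio of 0.28 (0.26 to 0.31). The classes come from the same 3 libraries, so they are not replicates of a condition. The part of free RNA in the droplets in the class values of *Hspa5* and of the other abundant members was not tested.

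*Hsp90b1* was lower in Rom 6 HPA than in Cont 6 HPA in 9 of 9 classes, with ratios from −0.43 to −0.04 and 5 intervals below 0. *Hspa8* was also lower in 9 of 9, with ratios from −0.26 to −0.04 and 6 intervals below 0. *Hspa9* went the other way in 7 of 9 classes, with 3 intervals above 0 and 0 below. For *Hsp90aa1.1*, 4 classes were above 0 and 5 below, within −0.12 and 0.16. Within deep nuclei the median Rom/Cont log2 ratio of all symbols was −0.05. How many of all symbols went the same way in as many classes was not counted, here or for *Hspa5*. Under the total UMIs, *Dnaja1* was lower in Rom 6 HPA than at 0 HPA in 9 of 9 classes, with ratios from −0.85 to −0.07. *Hspd1* and *Hspa4* were also lower in 9 of 9. All symbols leaned this way too, with a median of −0.16 within deep nuclei, so this is not read as a trait of *Dnaja1*.

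**Figure D4:**
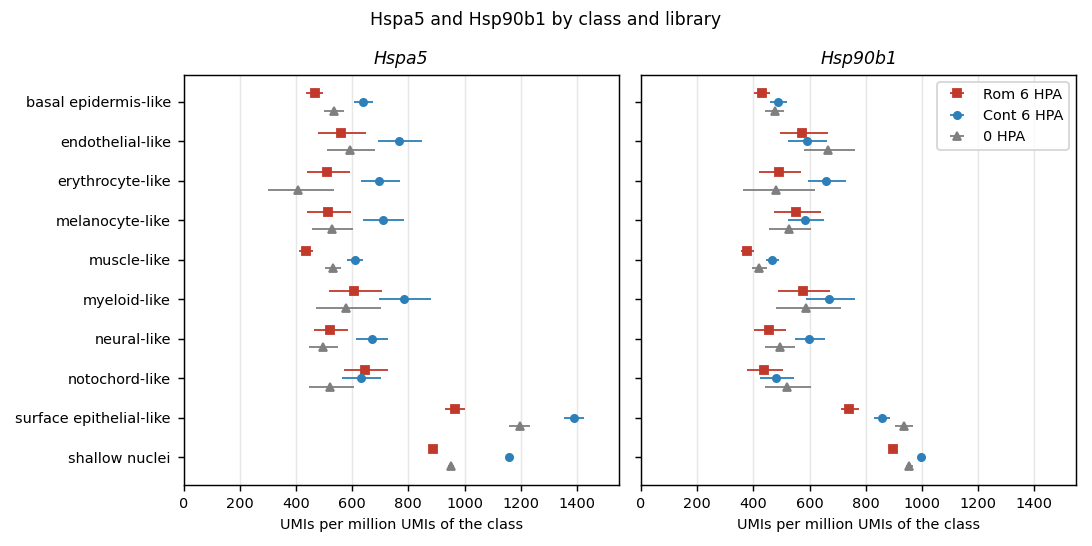
CPM of *Hspa5* (left) and *Hsp90b1* (right) in 9 marker-named classes of deep nuclei and in shallow nuclei, for Rom 6 HPA (squares), Cont 6 HPA (circles) and 0 HPA (triangles), with exact Poisson 95% intervals. *Hspa5* of Cont 6 HPA lies right of Rom 6 HPA in each class but notochord-like, and surface epithelial-like nuclei reach 1389 CPM in Cont 6 HPA.

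Most members had a lower level in deep than in shallow nuclei of the same library. The sum of the members was 6421 CPM in deep and 9448 CPM in shallow nuclei of Rom 6 HPA, 7030.0 and 10285 CPM in Cont 6 HPA, and 7530.4 and 10042 CPM at 0 HPA. The median log2 ratio of deep to shallow nuclei over the members was −0.43 in Rom 6 HPA, −0.41 in Cont 6 HPA and −0.38 at 0 HPA, while over all symbols it was 0.32, 0.44 and 0.39 in this order of libraries. *Hspe1* had 117 CPM in deep and 222 CPM in shallow nuclei of Rom 6 HPA, 124 and 245 CPM in Cont 6 HPA, and 137 and 262 CPM at 0 HPA. *Hspa8* had ratios of −0.74 in Rom 6 HPA, −0.75 in Cont 6 HPA and −0.50 at 0 HPA.

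Of the 57 members, 14 in Rom 6 HPA, 19 in Cont 6 HPA and 17 at 0 HPA ran against this, with a ratio above 0. *Hspb7* was higher in deep nuclei by 2.98 in Rom 6 HPA, 3.61 in Cont 6 HPA and 3.74 at 0 HPA on the log2 scale. *Dnajb14* had ratios of 1.13 in Rom 6 HPA, 0.81 in Cont 6 HPA and 1.06 at 0 HPA. *Dnajc11*, a J-domain protein of the mitochondrial membrane that helps to shape the cristae, had ratios of 0.87 in Rom 6 HPA, 0.94 in Cont 6 HPA and 1.1 at 0 HPA. In all, 5 of the 57 members were over 2-fold higher in deep nuclei in Rom 6 HPA, 4 in Cont 6 HPA and 6 at 0 HPA, against 33.3%, 36.5% and 34.1% of all symbols in this order. In each library these included *Hspa12b*, *Hspbap1* and *Hsph1*, which rest on few UMIs. The median nucleus had 2263 UMIs if deep and 1062 if shallow in Rom 6 HPA, 3522 and 1605 in Cont 6 HPA, and 2238 and 997 at 0 HPA, and the part of depth itself in these ratios was not tested.

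**Figure D5:**
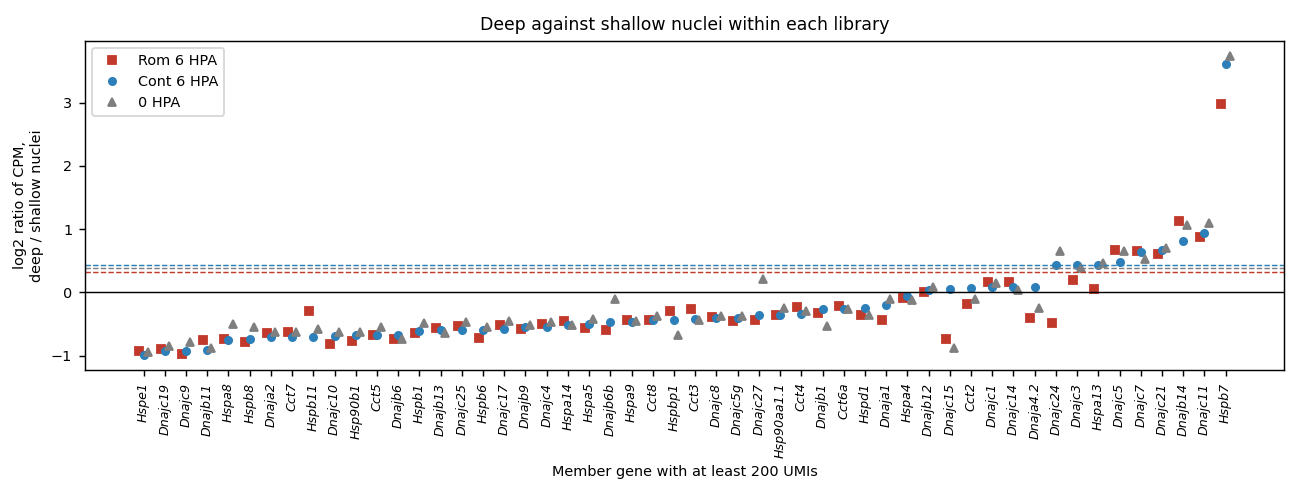
Log2 ratio of CPM in deep over shallow nuclei of the same library for the 52 members with at least 200 UMIs, ordered by the ratio in Cont 6 HPA. Symbols are Rom 6 HPA (squares), Cont 6 HPA (circles) and 0 HPA (triangles), and dashed lines give the median of all symbols in each library (0.32, 0.44 and 0.39). Most members lie below 0, and *Hspb7* lies far above the rest at 2.98 to 3.74.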

How the data were processed

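Single-nuclei libraries were made with 10x Genomics v3 chemistry. The authors mapped reads to an axolotl transcript assembly and deposited whole-number UMI counts per nucleus and transcript, without normalization, from Cell Ranger (version 6.0.0 in the submitters' processing notes, 3.0.2 in the file headers). UMIs were summed by symbol and scaled by the library total, and no test was possible with 1 library per condition. Members, roles, markers and lists were chosen with earlier results of these data known. Named genes are the 6 highest and 6 lowest ratios per comparison among members with at least 200 UMIs, the 3 members with the most UMIs per role, the Nanostring targets, and the 3 highest folds per class, of which those on a few UMIs are not described. Clustering left out member symbols and used the 3000 most dispersed features, 10 principal components for all nuclei and 20 for deep ones, 15 neighbours and Leiden at resolution 1 (leidenalg 0.10.2, scipy 1.17.1, Python 3.11.15). Deep clusters had a median depth, relative to the median nucleus of each library, over 1.5. A class name needed 3 markers over 2-fold and more of its markers among 10 leading genes than any other class. Doublets were kept and no caller was run. Counting intervals and folds were tested on simulated Poisson counts. These hold no spread between nuclei or replicates, so they check the calculation alone.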

Additional observations from a re-analysis of the deposited data

Results flagged for a closer look

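*Hspb8* was singled out because 2 classes differed in opposite directions between Cont 6 HPA and 0 HPA, each past 1.5-fold with an interval that left out 0. In basal epidermis-like nuclei the log2 ratio was 0.75 (0.03 to 1.5), on 50 UMIs in Cont 6 HPA and 25 at 0 HPA. In notochord-like nuclei it was −0.76 (−1.25 to −0.26), on 69 and 74 UMIs. The difference between the classes was not tested, since each class has 1 library per condition, and the cause was not tested.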

How the results depend on the processing

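With 1 library per condition, no replicate could be left out. No paired analysis was possible because each condition has 1 library. Of members over 1.5-fold higher in Rom 6 HPA than in Cont 6 HPA there were 3, and 1 with at least 200 UMIs or with each nucleus thinned to 950 UMIs, while 0 were lower and 2 in deep nuclei. Of members higher in Cont 6 HPA than at 0 HPA there was 1, and 3 under the size factors, 2 without the 50 most abundant features, 0 with at least 200 UMIs, 0 after thinning and 2 in deep nuclei. Lower in that comparison were 3, and 1 with at least 200 UMIs, 1 with the leading feature of a symbol alone, 1 in shallow and 1 in deep nuclei. Of members higher in Rom 6 HPA than at 0 HPA there were 0, and 3 under the size factors, 1 without the 50 most abundant features, 1 with the leading feature alone, 2 without the 6% deepest nuclei, 3 in shallow and 1 in deep nuclei. Lower there were 0, and 1 with the leading feature alone and 3 in deep nuclei. Members called for a class were 6, and 10 with the 3 libraries summed. All these are counts of members alone, and the shares of all symbols moved with the settings too. With at least 200 UMIs, 11.1% of all symbols and 5.77% of members were lower in Rom 6 HPA than at 0 HPA in deep nuclei. Under the size factors 4.74% and 3.85% were higher in Cont 6 HPA than at 0 HPA, and 6.07% and 1.92% in Rom 6 HPA than at 0 HPA. No count here is read as a result about the members. The log2 ratio of Cont 6 HPA to 0 HPA of *Hspb7* turned to 0.02 in shallow nuclei. Under the size factors, 8 of 28 described ratios of Cont 6 HPA to 0 HPA whose interval left out 0 changed sign, 11 of 32 of Rom 6 HPA to 0 HPA, and 1 of 27 of Rom 6 HPA to Cont 6 HPA (*Hspa9*). The causes of these shifts were not tested. The restrictions to deep and to shallow nuclei, and the size factors for the other genes of folding and stress, were chosen after seeing the data. Thinning left out 0.425% of the nuclei in Rom 6 HPA, 0.177% in Cont 6 HPA and 8.88% at 0 HPA. Members with few UMIs (*Hspa12b*, *Hspbap1*, *Dnajb2*, *Hsph1*) are limited by counting error.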
